A study of Mus musculus with 12 samples.

Results

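The marker genes Krt79, Lrig1, Plet1, Gata6, Sostdc1 and Defb6 of the upper hair follicle were followed across sorted fractions of mouse back skin epidermis. These 6 are among the 18193 genes that a single-gene probe set measured, and each was read from its probe set of highest mean log2 intensity over the 12 arrays. Cells were sorted by fluorescence from mice with 4 alleles that every group shared, pTRE-H2B-GFP with its driver K5-tTA, and Rosa-tdTomato with its driver K14-CreER. The keratin 5 promoter drove tTA and the keratin 14 promoter drove CreER, and both promoters act in basal keratinocytes, those of the follicle included. All mice had doxycycline at 1 g per kg of food for 2 weeks, which represses the H2B-GFP label, and 1 injection of tamoxifen at 75 mg per kg, and were sacrificed in second telogen, 1 week after it. From what is known of the study, BL stands for the basal layer, SL for the spinous layer, GL for the granular layer and LRC for label-retaining cells. There were 3 samples each of BL LRC and BL non-LRC, and 2 each of SL LRC, SL non-LRC and GL. The labels give neither the age in weeks nor the sorting gates, nor whether a sample is 1 animal or a pool, so each p-value reflects the spread among the samples at hand, which may be technical. The comparisons ask how infrequently and frequently dividing epidermal cells differ within a layer, and how the layers differ.

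The hair follicle opens to the skin surface through a funnel, the infundibulum, below which lie the isthmus and the junctional zone where the sebaceous gland is attached. The cells of this upper follicle renew apart from the bulge stem cells below and from the interfollicular epidermis around the opening, and they supply the infundibulum and the sebaceous duct and gland. Krt79 is a type II keratin of the infundibulum and sebaceous duct. Defb6 encodes a beta-defensin, a small secreted antimicrobial peptide. Lrig1 is a transmembrane protein that restrains epidermal growth factor receptor signalling and marks junctional zone stem cells. Plet1 is a surface protein that carries the MTS24 epitope of the isthmus, Gata6 is a zinc-finger transcription factor of the upper follicle and sebaceous duct lineage, and Sostdc1 is a secreted antagonist of BMP and Wnt signalling.

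All 6 members lay above the background floor on all 12 arrays. That floor, 22.4 to 42.6 units, was taken on each array from 27 probe sets against bacterial transcripts, at their 95th percentile. Arrays differed in ways that touch the results below. Signal of the bacterial hybridisation control BioB was low, 467 to 524 units, on BL LRC 1, BL non-LRC 1 and both SL non-LRC arrays, and high, 2885 to 3931 units, on the other 8. Within SL, this difference coincides with label retention. BL LRC 1 and BL non-LRC 1 also differed from the other 10 arrays in that Eif2s3y, Kdm5d and Uty, which are Y-linked, were under the floor there. Krt5 and Krt14, keratins of basal cells, stayed between 18023 and 29497 units on every array, those of SL and GL included. Of the other listed basal markers, Trp63 read 12816 to 20857 units over all arrays. Itga6 fell with the layers, from 9255 to 12233 units in BL to 5419 to 6347 in SL and 3044 to 3154 in GL. Flg, a marker of granular cells, was never above the floor in BL and read 517 and 271 units in GL. Of the suprabasal keratins Krt1 and Krt10, 0 of 2 were called from BL to SL, in LRCs or in non-LRCs. Both passed as lower in GL than in SL LRC, where 4.03% of all genes did, and 0 of 2 were called against SL non-LRC.

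Within BL, label-retaining cells carried less of all 6 genes. Krt79 and Defb6 differed most, at 6.58-fold and 7.5-fold lower, and Plet1 least, at 2.14-fold lower. All 6 passed the test as lower, where 1.23% of the 18193 genes did. No member overlapped between the 3 BL LRC and the 3 BL non-LRC samples, where 7.67% of all genes were lower without overlap.

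Krt79 read 829, 823 and 1008 units in the BL LRC samples and 4922, 4481 and 8887 units in the BL non-LRC samples. It fell by 2.72 ± 0.20 log2 units (SE, n = 3 and 3, limma adjusted p = 2.66e-06). BL non-LRC 3 stood highest, and the BL LRC samples lay close together. Defb6 read 598, 1165 and 1312 units in BL LRC and 3957, 9223 and 10561 units in BL non-LRC, and fell by 2.91 ± 0.31 (adjusted p = 6.83e-05). Sample 1 was the lowest in both groups, and the lowest BL non-LRC value was still above all 3 BL LRC values.

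The surface proteins moved less. Lrig1 read 2584, 2669 and 2263 units in BL LRC and 5914, 4849 and 6723 units in BL non-LRC, and fell by 1.21 ± 0.17 (adjusted p = 0.000744). Plet1 read 2122, 3171 and 1954 units in BL LRC and 4142, 5136 and 6020.3 units in BL non-LRC, and fell by 1.09 ± 0.20 (adjusted p = 0.00738). Its highest BL LRC sample, BL LRC 2, lay closest to the BL non-LRC range. This call was lost without BL LRC 3 (adjusted p = 0.0537) and without BL non-LRC 3 (adjusted p = 0.0503).

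The transcription factor Gata6 read 109.9, 297 and 210.0 units in BL LRC and 717, 580.1 and 783 units in BL non-LRC, and fell by 1.86 ± 0.33 (adjusted p = 0.00683). BL LRC 1, an array of low BioB signal, was the lowest. On the 8 arrays of high BioB signal alone the difference was -1.43 and did not pass (adjusted p = 0.124), while the other 5 members passed there. Sostdc1 read 5660.0, 6125 and 6474 units in BL LRC and 14399, 18258 and 14306 units in BL non-LRC, and fell by 1.36 ± 0.13 (adjusted p = 3.54e-05). Its 3 BL LRC values lay within a narrow range, far under the BL non-LRC values. Moderation without a mean-variance trend left 3 of the 6 called, Krt79, Defb6 and Sostdc1. Raising low values to 32 units lost Plet1 (adjusted p = 0.121) and Gata6 (0.119), and averaging all probe sets of a gene lost Gata6 (-1.21, adjusted p = 0.217).

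**Figure D1:**
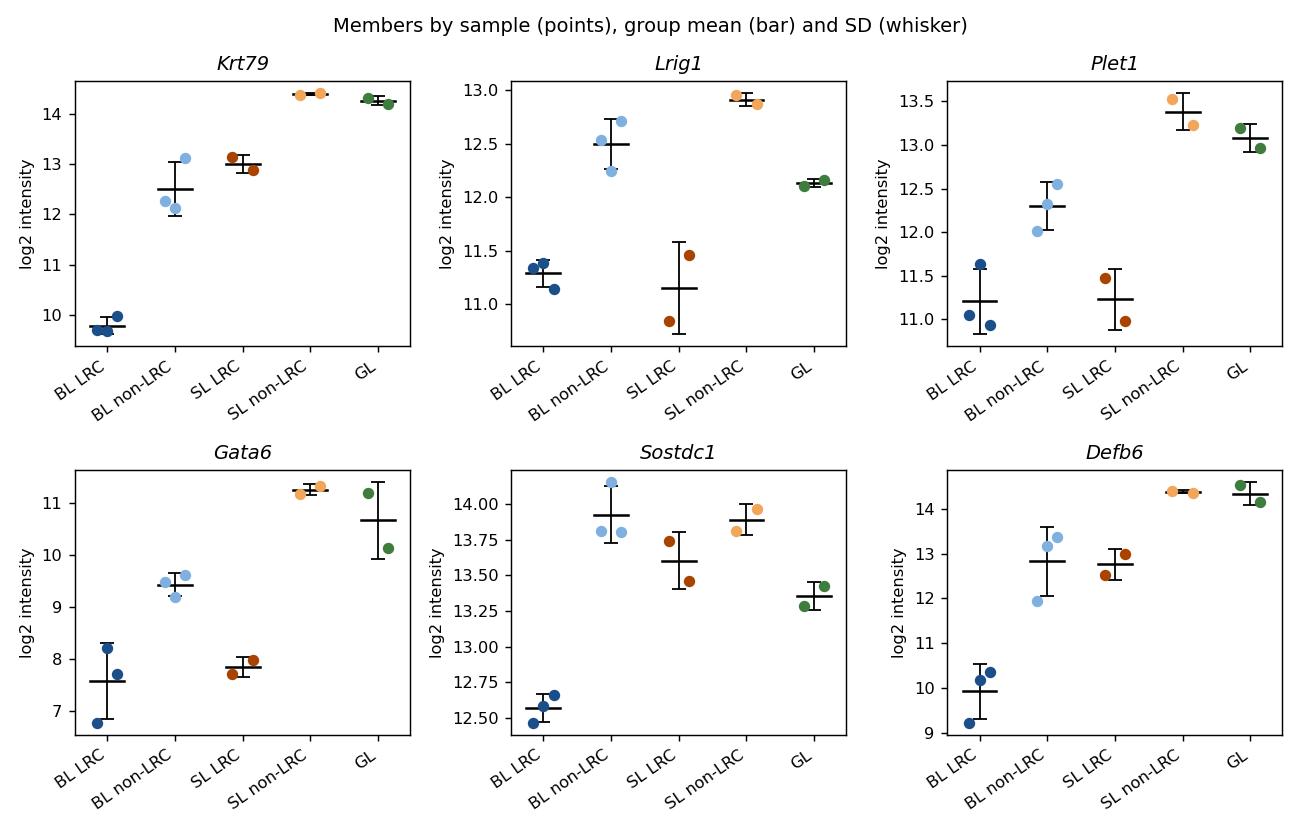
Intensity of the 6 members on a log2 axis (vertical) in the 5 sorted groups (horizontal), with a point for each sample, a bar at the group mean and whiskers of 1 SD over 3 or 2 samples. In every panel the 3 BL LRC points lie under the 3 BL non-LRC points, and SL LRC lies near BL LRC for Lrig1, Plet1 and Gata6 but far above it for Krt79 and Defb6.

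RefSeq windows of 300 bases around the gene start (250 before, 50 after, build GRCm38.p6) were found for 4 members, Krt79, Lrig1, Plet1 and Defb6. They were searched because Gata6 and other members fell together in LRCs. The motif letters were AGATAA for GATA factors, also with T as its first or G as its last letter, TGANTCA for AP-1 and TATAAA for the TATA box, on both strands, with none of these motifs overlapping another in the member windows. A GATA match was present for Krt79 and Defb6, and 29.8% of all 32851 windows hold such a match. In Defb6 it starts 115 bases before the gene start, and in Krt79 at 219 before it, on the other strand, and at base 31 after it. Plet1 holds a TATAAA 30 bases before its start (13.6% of windows) and a TGANTCA 144 bases before it (7.81%), and Lrig1, at 71.6% G and C before its start, holds none of the 3. A match is a description of letters and not a measured site. The 250 bases before the start follow for the 3 with a match, 5′ to 3′ on the gene's strand, with GATA and TATAAA matches in capitals, and then the Krt79 match after the start.
Krt79, chr15:101940325-101940574, minus strand: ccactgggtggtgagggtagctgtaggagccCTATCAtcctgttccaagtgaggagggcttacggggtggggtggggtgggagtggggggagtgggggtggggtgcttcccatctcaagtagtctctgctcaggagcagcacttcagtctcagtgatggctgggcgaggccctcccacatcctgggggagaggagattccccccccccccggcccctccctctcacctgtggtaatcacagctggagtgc
Defb6, chr8:19225228-19225477, plus strand: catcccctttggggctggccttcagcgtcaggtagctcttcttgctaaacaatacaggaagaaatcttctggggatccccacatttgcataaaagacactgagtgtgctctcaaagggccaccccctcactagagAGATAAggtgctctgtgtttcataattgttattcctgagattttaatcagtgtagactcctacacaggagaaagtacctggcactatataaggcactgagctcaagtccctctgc
Plet1, chr9:50494275-50494524, plus strand: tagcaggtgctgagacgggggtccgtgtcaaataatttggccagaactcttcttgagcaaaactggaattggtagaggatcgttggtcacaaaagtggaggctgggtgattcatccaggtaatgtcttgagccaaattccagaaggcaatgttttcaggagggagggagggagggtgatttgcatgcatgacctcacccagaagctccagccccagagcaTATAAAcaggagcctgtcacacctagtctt
Krt79 after the start, chr15:101940278-101940305, minus strand: cagctgggaaaAGATAAaaaggtgtttg

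Sebocyte markers were lower in BL LRC too. Of 10 listed markers 9 were measured and 8 passed as lower, with a median of -4.37 log2 units. Their summed level was 7426 to 10257 units in BL LRC and 18899 to 56315 units in BL non-LRC, and on none of the 3 BL LRC arrays was the nuclear receptor Pparg above the floor. In SL, 5 of 9 passed as lower in LRCs (median -3.40), with summed levels of 12247 to 16685 units in LRC and 23234 to 40388 units in non-LRC. The basal markers Krt5, Krt14, Itga6 and Trp63 had 0 of 4 called in either comparison, with 0 and 2 at an unadjusted p under 0.05. Of the suprabasal keratins, Krt10 was higher in BL LRC (0.52 ± 0.11, adjusted p = 0.0214), and in SL LRC both Krt1 (1.12 ± 0.20, adjusted p = 0.00372) and Krt10 (0.56 ± 0.14, adjusted p = 0.0262) were higher. Of 8 bulge markers 1 passed in BL, the transcription factor Sox9, which fell by 2.04 ± 0.19 there (adjusted p = 1.67e-05) and fell by 2.41 ± 0.23 in SL (adjusted p = 5.35e-05). What part these sebocyte, suprabasal and bulge transcripts have in the members' differences was not tested. In sorted bulk samples, fewer cells of a type and less RNA per cell cannot be told apart.

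Within SL, label-retaining cells again carried less of the members, and the order of sizes was another. Gata6 differed most, at 10.5-fold lower, followed by Plet1 at 4.45-fold and Lrig1 at 3.39-fold lower. Defb6 and Krt79 were 3.09-fold and 2.61-fold lower, and Sostdc1 did not pass. In all 5 of 6 members passed as lower, where 2.70% of all genes did. All 6 were lower in both SL LRC samples than in both SL non-LRC samples, as were 24.2% of all genes. With arrays centred on their medians, which moved the lower share of the called genes from 64.5% to 51.1%, 5 members passed as well.

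Gata6 read 211 and 254 units in SL LRC and 2306 and 2568 units in SL non-LRC, and fell by 3.39 ± 0.41 (SE, n = 2 and 2, adjusted p = 0.000212). Plet1 read 2847 and 2025 units in SL LRC and 11852 and 9616 units in SL non-LRC, and fell by 2.15 ± 0.24 (adjusted p = 0.000119). Lrig1 read 1839 and 2804 units in SL LRC and 7942 and 7475 units in SL non-LRC, and fell by 1.76 ± 0.21 (adjusted p = 0.000165). For these 3 genes both SL non-LRC values were far above both SL LRC values, and each call was kept in 12 of 12 fits that left out 1 array.

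Krt79 read 9007 and 7563 units in SL LRC and 21361 and 21776 units in SL non-LRC, and fell by 1.39 ± 0.25 (adjusted p = 0.00367, and 0.0502 without SL non-LRC 2). Defb6 read 5856 and 8189.7 units in SL LRC and 21741 and 21077 units in SL non-LRC, and fell by 1.63 ± 0.38 (adjusted p = 0.022). Its groups did not overlap, but its call was lost without any 1 of the 4 SL arrays (adjusted p = 0.206 and 0.0584 without SL LRC 1 and 2, and 0.110 and 0.141 without SL non-LRC 1 and 2). Sostdc1 read 13718 and 11274 units in SL LRC and 14381 and 15994 units in SL non-LRC, a difference of -0.29 ± 0.16 (adjusted p = 0.41).

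The SL arrays split by BioB signal exactly as by label, so the array difference and label retention cannot be told apart there. With a term for it, estimated through BL, the same 5 members passed. Defb6 then differed by -2.81 (adjusted p = 2.16e-05) in place of -1.63, Gata6 by -3.94 (adjusted p = 0.00103), Plet1 by -2.48, Lrig1 by -1.70 and Krt79 by -1.63 (adjusted p = 0.0146). The term is estimated from BL LRC 1 and BL non-LRC 1, which also lack the Y-linked transcripts and are both replicate 1, whereas the SL non-LRC arrays have those transcripts, so in BL these array differences cannot be told apart. Other transcripts moved with the label too. In SL LRC, 2 of 8 bulge markers were lower (Sox9 and Lhx2) and 1 higher (Krt24), 2 of 6 melanocyte markers were lower, and 3 of 6 Langerhans or myeloid markers were lower, the last with summed levels of 1018 to 1489 units against 3279 to 8029 units in SL non-LRC. Their part in the members' differences was not tested.

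Whether the label effect differed between the 2 layers was tested as an interaction, and it passed for 0 of 6 members and 0 of 18193 genes (1291 genes had an unadjusted p under 0.05). As SL minus BL, the estimates were positive for Krt79 (1.33 ± 0.32 log2 units), Defb6 (1.28 ± 0.50) and Sostdc1 (1.07 ± 0.21), and negative for Gata6 (-1.54 ± 0.53), Plet1 (-1.06 ± 0.31) and Lrig1 (-0.55 ± 0.27). Sostdc1 came closest (adjusted p = 0.184), and Krt79 had 0.356. Unadjusted p was 9.9e-05 for Sostdc1, 0.000650 for Krt79, 0.00377 for Plet1, 0.00987 for Gata6, 0.0201 for Defb6 and 0.0542 for Lrig1. The same term also measures whether the step from BL to SL differs between LRCs and non-LRCs.

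**Figure D2:**
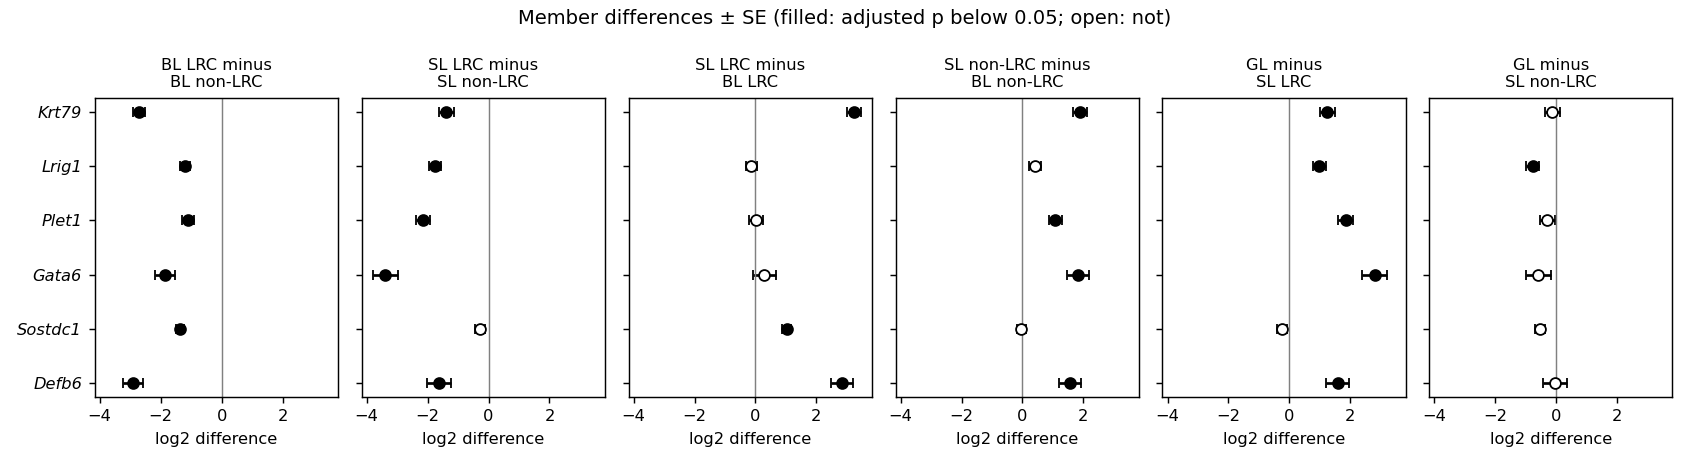
Differences in log2 intensity (horizontal, first group minus second) of the 6 members (vertical) in 6 comparisons, with standard errors from the fit over all genes. Filled points passed an adjusted p of 0.05 and open points did not, so that all 6 are filled and left of 0 for BL and 5 of 6 for SL, while 3 are filled and right of 0 for SL LRC minus BL LRC.

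From BL to SL among label-retaining cells, Krt79, Defb6 and Sostdc1 rose, and Lrig1, Plet1 and Gata6 did not pass. Krt79 was 9.35-fold higher in SL LRC, a rise of 3.23 ± 0.22 (SE, n = 2 and 3, adjusted p = 1.84e-06). Defb6 was 7.14-fold higher (2.84 ± 0.35, adjusted p = 0.000355), and Sostdc1 was 2.05-fold higher (1.03 ± 0.15, adjusted p = 0.000909). In these 3 genes both SL LRC values lay above all 3 BL LRC values, as in 14.3% of all genes. Against 1.41% of all genes called higher, 3 of 6 members were.

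The estimates of the other 3 were small. Lrig1 differed by -0.14 ± 0.19 (adjusted p = 0.862), Plet1 by 0.025 ± 0.22 (adjusted p = 0.986) and Gata6 by 0.28 ± 0.37 (adjusted p = 0.853), and in each the 2 groups overlapped. The second Gata6 probe set, above the floor on 12 of 12 arrays, gave 0.86 without overlap. The sign of these 3 turned in 1, 8 and 2 of 23 alternative fits, none with a call. This comparison uses the BL LRC arrays of the label comparison in BL, so the low BL LRC levels of Krt79 and Defb6 enter both.

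Among cells that had lost the label, Krt79, Defb6, Plet1 and Gata6 rose from BL to SL, and Lrig1 and Sostdc1 did not pass. Krt79 was 3.71-fold higher in SL non-LRC (1.89 ± 0.22, SE, n = 2 and 3, adjusted p = 0.00021). Gata6 was 3.54-fold higher (1.82 ± 0.37, adjusted p = 0.0174), Defb6 2.94-fold (1.56 ± 0.35, adjusted p = 0.034) and Plet1 2.12-fold (1.08 ± 0.22, adjusted p = 0.0176). Here 4 of 6 members were called higher, against 1.17% of all genes. Lrig1 differed by 0.42 ± 0.19 (adjusted p = 0.397) and Sostdc1 by -0.036 ± 0.15 (adjusted p = 0.96).

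These calls, Krt79 excepted, rest on few arrays. Without SL non-LRC 1 or without SL non-LRC 2, Krt79 alone passed, Gata6, Defb6 and Plet1 having an adjusted p of 0.145, 0.234 and 0.250 in the first case and 0.159, 0.181 and 0.0676 in the second. Without BL non-LRC 1, Plet1 (0.0600) and Defb6 (0.0713) were lost, without BL non-LRC 2, Plet1 (0.0538) and Gata6 (0.0775), and without GL 1 or GL 2, Defb6 (0.0504 and 0.0505). Both SL non-LRC arrays and BL non-LRC 1 had low BioB signal, and between them Krt79 differed by 2.13, Defb6 by 2.44, Gata6 by 1.76 and Plet1 by 1.37 (n = 2 and 1, no test). With the BioB term Defb6 rose by 2.35 (adjusted p = 6.87e-06) in place of 1.56. Markers of other follicle cells rose as well. Of 9 hair shaft and inner root sheath markers 6 were called higher, their summed level being 188 to 355 units in BL non-LRC and 1495 to 1901 units in SL non-LRC, and Krt27, Krt28 and Krt73 were never above the floor in BL non-LRC. Of 8 bulge markers 2 were called higher, against 1.17% of all genes, and 0 lower. The 2 were the transcription factors Lhx2 and Sox9, which rose by 2.92 ± 0.27 (adjusted p = 2.25e-05) and 1.48 ± 0.21 (adjusted p = 0.00107). The estimates for the bulge markers Krt24 and Postn were negative and did not pass. The part of these markers in the members' rise was not tested.

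In GL, all members but Sostdc1 were higher than in SL LRC, and Gata6, the transcription factor, had the largest of these differences at 6.99-fold. So 5 of 6 members were called higher against SL LRC, where 5.34% of all genes were. Against SL non-LRC, 1 of 6 passed, Lrig1 as lower, where 2.83% of all genes were called lower. Centring arrays on their medians moved the median over all genes from -0.044 to -0.27 in the first comparison, where 5 members still passed, and the lower share of called genes from 43.0% to 62.7% there and from 58.9% to 69.4% against SL non-LRC.

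Krt79 read 20541 and 18767 units in GL, 1.25 ± 0.25 against SL LRC (SE, n = 2 and 2, adjusted p = 0.00319) and -0.14 ± 0.25 against SL non-LRC (adjusted p = 0.848). Defb6 read 23588 and 18198 units, 1.58 ± 0.38 against SL LRC (adjusted p = 0.0143, and 0.156 without SL LRC 1, 0.137 without GL 1 or 0.120 with low values raised to 32 units). Against SL non-LRC it differed by -0.047 ± 0.38 (adjusted p = 0.973), which became -1.23 with the BioB term (adjusted p = 0.0123). GL and SL non-LRC differ in BioB signal as a whole, so that term rests on the same BL arrays.

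Gata6 read 2323 and 1125 units in GL, a wide pair, at 2.80 ± 0.41 against SL LRC (adjusted p = 0.000269) and -0.59 ± 0.41 against SL non-LRC (adjusted p = 0.502). Plet1 read 9379 and 7999 units, at 1.85 ± 0.24 (adjusted p = 0.000103) and -0.30 ± 0.24 (adjusted p = 0.576) in the same order. Lrig1 read 4408 and 4582 units, between the 2 SL groups. It was 0.98 ± 0.21 over SL LRC (adjusted p = 0.00517, and 0.116 without SL LRC 1) and fell by 0.78 ± 0.21 against SL non-LRC (adjusted p = 0.0393). The latter call was lost without any 1 of the SL non-LRC or GL arrays (adjusted p = 0.124 to 0.195), under quantile normalisation (0.0581) and with the BioB term (0.243).

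Sostdc1 read 9997 and 11009 units in GL, under both SL groups in level, at -0.25 ± 0.16 against SL LRC (adjusted p = 0.444) and -0.53 ± 0.16 against SL non-LRC (adjusted p = 0.0753). The latter passed without BL non-LRC 2 (adjusted p = 0.0472), under quantile normalisation (0.0190), with arrays centred on their medians (0.0461) and with the mean of its probe sets (0.0283). GL also held other cells' transcripts. The 6 Langerhans or myeloid markers all passed as higher against either SL group and summed to 25979 to 55486 units in GL, against at most 8029 units on the other arrays. The 4 measured T cell markers summed to 7325 to 23087 units in GL, 2056 to 4231 units in SL and 3772 to 7772 units in BL. Thy1 made up most of the sums in BL and SL, at 1563 to 7216 units, and read 5220 and 1372 units in GL. Cd3e, Cd3g and Cd3d read 24.6 to 486 units in BL and SL and 670 to 8775 units in GL. Bulge markers summed to 25933 to 26331 units in GL and 5103 to 5997 units in SL LRC, with 3 of 8 called higher, among them Lhx2 (3.87 ± 0.30) and Sox9 (3.23 ± 0.23). Hair shaft and inner root sheath markers had 3 of 9 called higher against SL LRC (6566 to 8038 units summed in GL, 1075 to 2035 in SL LRC). Melanocyte markers had 2 of 6 called higher, with 1711 to 2443 units summed in GL and 293 to 322 in SL LRC. Sebocyte markers had 1 of 9 called higher and 1 lower against SL LRC. Against SL non-LRC 0 were higher and 3 lower, where 2.83% of all genes were lower. They summed to 9890 to 14105 units in GL, against 12247 to 16685 in SL LRC and 23234 to 40388 in SL non-LRC. The part of all these transcripts in the members' levels was not tested.

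Over the 5 groups, the members did not all share an order of level. Krt79 ran from BL LRC (9.79 ± 0.17 log2 units, mean and SD) through BL non-LRC (12.50 ± 0.54), SL LRC (13.01 ± 0.18) and GL (14.26 ± 0.092) to SL non-LRC (14.40 ± 0.02). The steps from BL LRC to BL non-LRC and from SL LRC to GL passed, and the other 2 did not pass (adjusted p = 0.235 for BL non-LRC to SL LRC). With the replicate block that step was 0.71 and passed (adjusted p = 0.0179), as it did without BL non-LRC 3 (0.81, adjusted p = 0.00727). Defb6 ran from BL LRC (9.92 ± 0.61) through SL LRC (12.76 ± 0.34), BL non-LRC (12.83 ± 0.77) and GL (14.34 ± 0.26) to SL non-LRC (14.39 ± 0.032). Its steps from BL LRC to SL LRC and from BL non-LRC to GL passed (adjusted p = 0.00728 for the latter, where 7.28% of all genes were called higher, and 0.103 without GL 1). SL LRC and BL non-LRC were close in it (adjusted p = 0.949).

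Plet1 and Gata6 had the same order of means as Defb6, BL LRC, then SL LRC and BL non-LRC, then GL and last SL non-LRC. Plet1 held 11.21 ± 0.37, 11.23 ± 0.35, 12.30 ± 0.27, 13.08 ± 0.16 and 13.38 ± 0.21 log2 units there. Gata6 held 7.57 ± 0.73, 7.85 ± 0.19, 9.43 ± 0.22, 10.66 ± 0.74 and 11.25 ± 0.11. In both, the first and the last step did not pass, while the steps from SL LRC to BL non-LRC (3.76% of all genes were called lower in SL LRC; adjusted p = 0.00629 for Plet1 and 0.0148 for Gata6) and from BL non-LRC to GL (0.0248 and 0.0345) passed. The step from SL LRC to BL non-LRC was lost for Plet1 without SL LRC 2 (0.135) and for Gata6 without either SL LRC array (up to 0.149). The step from BL non-LRC to GL was lost for Plet1 without BL non-LRC 1 or 2 or either GL array (up to 0.209) and for Gata6 without BL non-LRC 1 or 2 or GL 1 (up to 0.426), and for both with arrays centred on their medians.

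Lrig1 ran from SL LRC (11.15 ± 0.43) through BL LRC (11.29 ± 0.13), GL (12.13 ± 0.039) and BL non-LRC (12.50 ± 0.24) to SL non-LRC (12.91 ± 0.062), and of its 4 steps the one from BL LRC to GL passed (adjusted p = 0.00497, where 7.92% of all genes were called higher). Sostdc1 ran from BL LRC (12.57 ± 0.097) through GL (13.36 ± 0.098), SL LRC (13.60 ± 0.20) and SL non-LRC (13.89 ± 0.11) to BL non-LRC (13.92 ± 0.20), and its step from BL LRC to GL passed (0.0013). Sostdc1 was the member whose highest mean lay in BL, but its last step did not pass (adjusted p = 0.96) and the groups overlapped. With the BioB term SL non-LRC minus BL non-LRC was 0.071 in place of -0.036. BL LRC had the lowest mean in the 5 members other than Lrig1.

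Several probe sets of a gene mostly moved together. The 2 Sostdc1 probe sets differed by -1.36 and -1.52 between BL LRC and BL non-LRC and by -0.29 and -0.47 in SL. The 3 Plet1 probe sets lay between -0.96 and -1.18 in BL and between -1.69 and -2.48 in SL. From BL to SL in non-LRCs they parted, with 1.22 and 1.08 for the brighter pair and 0.31, with overlapping groups, for the dimmest. For Lrig1 the 2 brighter probe sets gave -1.18 and -1.21 in BL, whereas the dimmest, at 215 to 448 units, gave -0.054 with overlapping groups. In SL with the label this dimmest probe set gave -0.60 without overlap. For GL against SL LRC it gave -0.080 with overlapping groups, where the brighter 2 gave 1.24 and 0.98. For Gata6 the 2 brighter gave -1.97 and -1.86 in BL, and the dimmest, above the floor on 7 of 12 arrays, gave 0.21. In SL with the label they gave, in the same order, -2.85, -3.39 and -1.91, each without overlap. For GL against SL LRC they gave 1.90, 2.80 and, with overlapping groups, 1.08, so the sizes given for Gata6 depend on the probe set used. Krt79 and Defb6 had 1 probe set each.

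**Figure D3:**
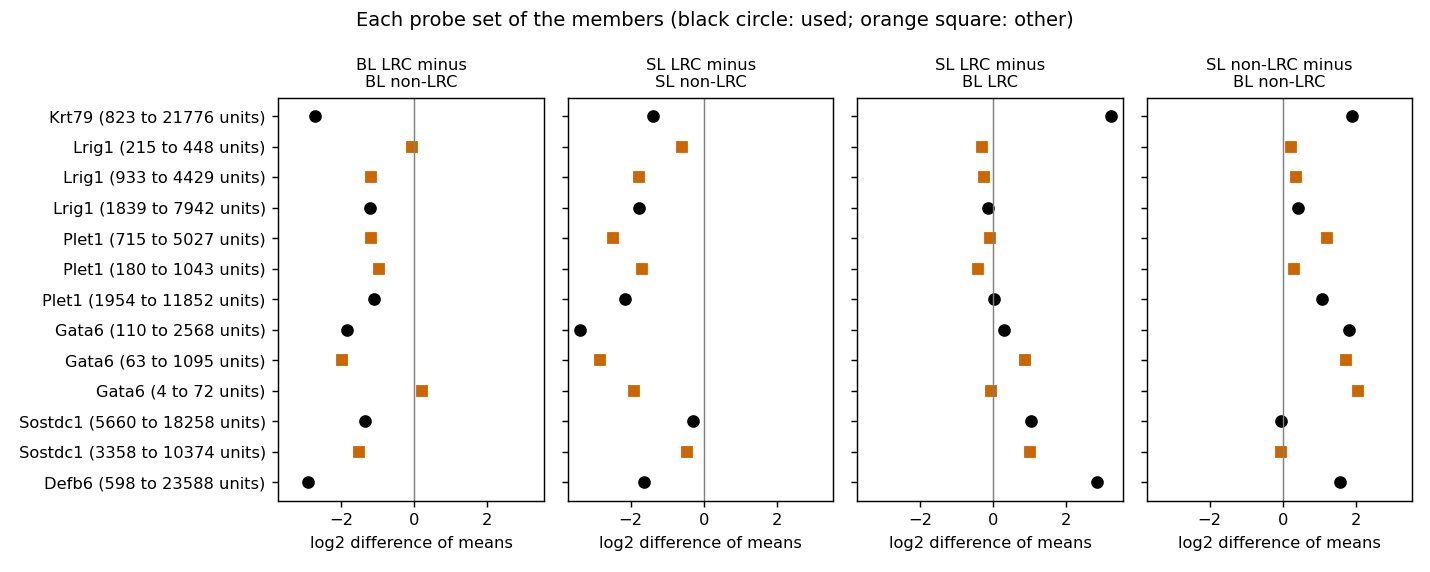
Difference of mean log2 intensity (horizontal) for every single-gene probe set of the members (vertical, with its lowest and highest intensity) in 4 comparisons. Black circles are the probe sets used and orange squares the others, and the dimmest probe sets of Lrig1 and Gata6 lie near 0 in BL while their brighter partners lie left of it.

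Other upper follicle genes followed the members in part. Of 16 listed genes 13 were measured. In BL, 7 of 13 were lower in LRCs (Defb1, counted again among the relatives below, is 1 of them) and 0 higher (median -1.02 log2 units, against 0.046 over all genes), and in SL 7 were lower and 1 higher (median -1.50, against -0.0013). Nebl, an actin-binding protein, read 77.7, 52.8 and 53.6 units in BL LRC and 588, 430.5 and 695 in BL non-LRC, a fall of 3.21 ± 0.27 (adjusted p = 4.78e-06), and fell by 2.92 ± 0.33 in SL (adjusted p = 0.000108). Aqp3, a water and glycerol channel, fell by 1.65 ± 0.21 in BL (adjusted p = 0.000247) and 1.67 ± 0.25 in SL (adjusted p = 0.00112). Fst, which binds activin, fell by 2.82 ± 0.36 in BL (adjusted p = 0.00031). Cd200, a surface glycoprotein, was lower in BL as well (adjusted p = 0.000222), with 2 of 3 BL LRC arrays above the floor, and fell by 2.85 ± 0.52 in SL. The gene called higher in SL LRC was the transcription factor Klf5 (1.00 ± 0.19, adjusted p = 0.00649).

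From BL to SL, 7 of the 13 rose and 1 fell in LRCs (1.41% of all genes fell there), and 7 rose in non-LRCs. Teddm3 had the smallest p of the list in non-LRCs, rising by 4.62 ± 0.49 (adjusted p = 7.71e-05). In LRCs it rose by 3.49 ± 0.49 (adjusted p = 0.000822), with 2 of 3 BL LRC arrays above the floor. Cst6, an inhibitor of cysteine proteases, rose by 2.66 ± 0.29 in LRCs (adjusted p = 0.000133) and 2.51 ± 0.29 in non-LRCs (adjusted p = 0.000146), from 1547, 1910.2 and 1899.9 units in BL LRC and 2484, 5615 and 6685 in BL non-LRC to 10289 and 12255 in SL LRC and 26731 and 25024 in SL non-LRC. Krt17, a follicle keratin, rose by 1.57 ± 0.21 in non-LRCs (adjusted p = 0.000742), and Atp6v1c2, a proton pump subunit, by 2.48 ± 0.36 (adjusted p = 0.00129). The receptor Lgr6 fell by 2.00 ± 0.36 in LRCs (adjusted p = 0.00498). In GL, 9 were higher and 1 lower than in SL LRC (4.03% of all genes were lower), 6 being called in all without GL 1. Against SL non-LRC, 1 was higher (as were 1.98% of all genes), the repressor Prdm1 (2.39 ± 0.62, adjusted p = 0.0356), and 2 lower, Lgr6 (-2.41 ± 0.39) and Aqp3 (-1.52 ± 0.25). The count in non-LRCs fell from 7 to 4 without SL non-LRC 1 and that in BL from 7 to 4 without BL non-LRC 3. In the SL label comparison, the 8 called became 5 without SL LRC 2 or without either SL non-LRC array, and in LRCs from BL to SL the 8 called became 4 without SL LRC 1 and 5 without BL LRC 3.

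**Figure D4:**
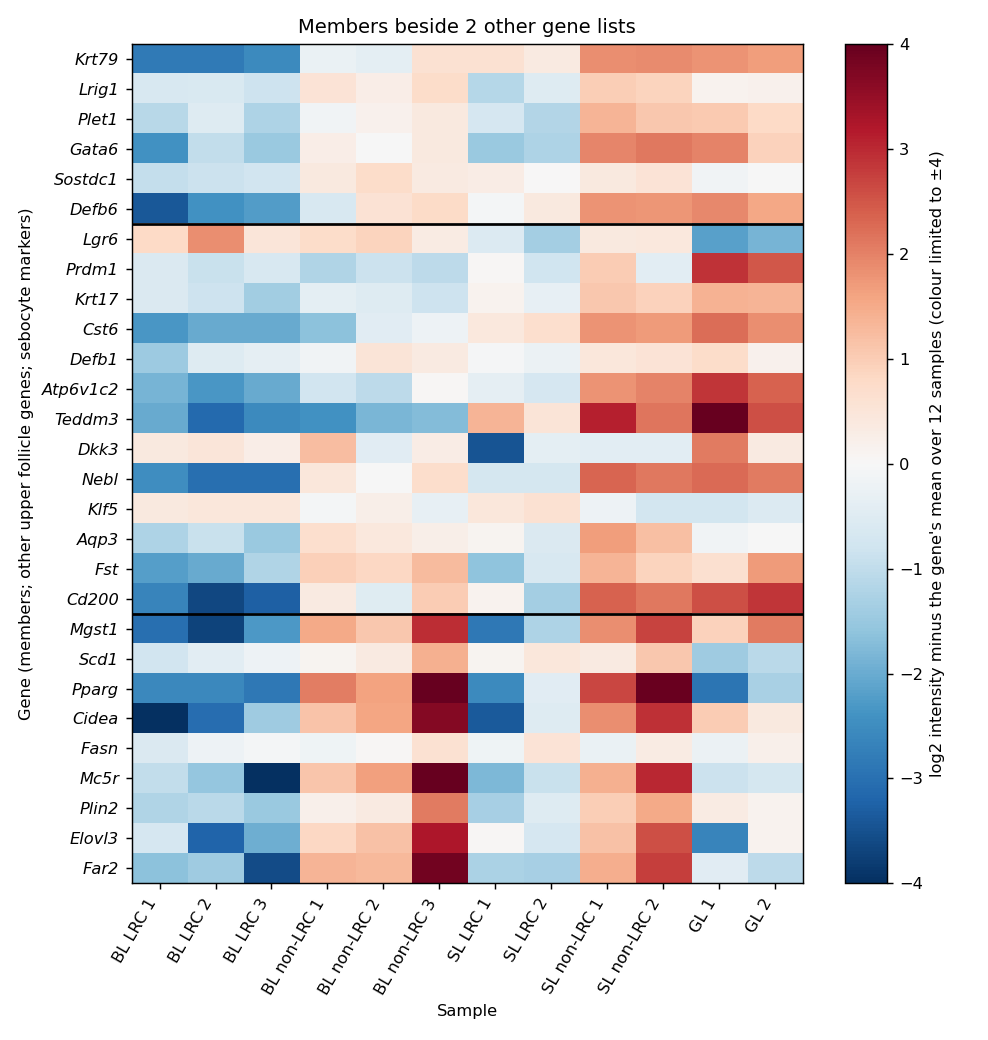
Log2 intensity of each gene minus its mean over the 12 samples (colour, limited to ±4) for the 6 members, 13 other upper follicle genes and 9 sebocyte markers (rows) in the 12 samples (columns). Nebl, Atp6v1c2 and Cst6 are reddest in SL non-LRC and GL, whereas Pparg, Mc5r and Far2 are reddest in BL non-LRC 3 and SL non-LRC 2 and blue in both LRC groups.

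The families of the members did not follow them as a whole. Of 23 listed relatives 21 were measured, and in BL 2 were higher in LRCs and 1 lower (median 0.50), in SL 3 higher and 0 lower (median 0.25). Over all genes 0.308% were higher in BL LRC and 1.49% in SL LRC. Gata3, a GATA factor of the epidermis, read 11405 and 11761 units in SL LRC and 5270.2 and 4155 units in SL non-LRC, a rise of 1.31 ± 0.18 (adjusted p = 0.00063), and stood at 0.50 ± 0.15 in BL (adjusted p = 0.146). Gata6 went the other way in SL, as given above. Krt78, a type II keratin, read 1907 and 3874 units in SL LRC and 323 and 363 units in SL non-LRC, a rise of 2.99 ± 0.41 (adjusted p = 0.000523), and rose by 1.38 ± 0.33 in BL LRC (adjusted p = 0.0477). Krt79 and Krt78 thus moved in opposite directions with the label in both layers. The keratin Krt77 rose by 0.58 ± 0.11 in BL LRC (adjusted p = 0.00926) and by 0.62 ± 0.13 in SL LRC (adjusted p = 0.0123).

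Defb1, another beta-defensin, was lower in BL LRC like Defb6 (-1.02 ± 0.24, adjusted p = 0.0447). The next relatives are named outside the naming rule, as the closest in family. Defb8 was never above the floor, and Defb3 and Defb4 were above it on 4 and 3 of 12 arrays. The Lrig1 relatives Lrig2 and Lrig3 read 535 to 1130 and 730.5 to 1678 units over the 12 arrays, and neither passed in BL or SL with the label. Sost, the relative of Sostdc1, reached at most 101 units.

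Of 12 signalling partners of Lrig1 and Sostdc1, all on the array, 0 passed with the label in BL by limma (3 at an unadjusted p under 0.05) and 1 in SL. That gene, Lrp4, a receptor that binds Sostdc1, rose by 1.01 ± 0.21 in SL LRC (adjusted p = 0.0088), from 2196 and 1798 units in SL non-LRC to 4117 and 3909 in SL LRC, and stood at 0.62 ± 0.17 in BL (adjusted p = 0.0844). Bmp2, a BMP ligand, stood at 1.65 ± 0.46 in SL (adjusted p = 0.0549). Erbb3, a receptor of the epidermal growth factor family, rose by 0.73 ± 0.16 from BL LRC to SL LRC (adjusted p = 0.0227). In GL, 4 partners were lower than in SL LRC, Lrp4 (-2.34 ± 0.21), the receptor Met (-2.10 ± 0.25), Bmp4 (-2.47 ± 0.41) and Lrp5 (-0.67 ± 0.20).

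Across the 12 arrays the members correlated with each other in log2 intensity, as a description of points that share 5 groups. Krt79 and Defb6 had Pearson r = 0.970, Plet1 and Gata6 0.959, and Lrig1 was at 0.836 with Plet1 and 0.849 with Gata6. Gata6 and Defb6 were as close, at 0.852, and Plet1 and Defb6 had 0.820 and Krt79 and Gata6 0.809. Krt79 and Plet1 had 0.785, and Lrig1 had 0.665 with Defb6 and 0.618 with Krt79. The lowest value lay between Sostdc1 and Plet1, at 0.566. Sostdc1 had its highest value with Defb6, at 0.771.

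Among the 13614 genes above the floor on at least 6 arrays, other genes had patterns still closer to some members, by Pearson r over the same 12 arrays. For Krt79 these were Lratd1 (0.983), Defb6, Rgma (0.962), Shroom3 (0.958) and Slc15a1 (0.957). The genes nearest to Defb6 were Slc15a1 (0.973), Krt79, Shroom3 (0.966), Sdr16c6 (0.963) and Lratd1 (0.962), so 3 of these genes were shared with Krt79. Plet1 had Akap2 (0.962), Gata6, Enc1 (0.958), Rassf9 (0.958) and Mir425 (0.951), and Gata6 had Plet1, Akap2 (0.949), Vgll3 (0.945), Usp43 (0.941) and Foxc1 (0.940). Lrig1 was nearest to Irx1 (0.956), Gstm1 (0.954), Irx4 (0.950), Nudt4 (0.950) and Slco2b1 (0.949). Sostdc1 had lower values, with Vps37d (0.902), Tpd52l1 (0.881), Sh3glb2 (0.873), Pdpn (0.869) and Pdyn (0.860).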

How the data were processed

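Each sample was hybridised to 1 array after 5 ng of RNA was amplified with Ovation Pico WTA and labelled with the Encore Biotin Module, per the labels' protocols. The deposited values are linear intensity values, 1 per probe set, and each array of the authors' table averages 500.0 after trimming 2% at the ends. No label or header names the summarisation software or background correction. Here log2 was taken with nothing added. Of 45101 probe sets 34945 carry 1 gene in the platform annotation, 932 several and 9160 none (64 are controls), and each of 18193 genes was read from its probe set with the highest mean log2. Scanner-level data were not used here.

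Differences came from limma 3.58.1 in R 4.3.3, as 1 linear model of 5 group means over 12 arrays with eBayes and a mean-variance trend. Benjamini-Hochberg adjustment ran over 18193 genes at 0.05, and the script was tested on simulated data. Errors are moderated standard errors unless called SD. The members and gene lists were chosen with earlier results of these data known. Genes named are the members, the 5 nearest to each by r, and up to 4 genes of smallest p per list and comparison. Exceptions include the relatives said above to lie outside this rule, and Klf5 in SL, named for its direction. Same-numbered BL LRC and BL non-LRC samples deviated together (r = 0.19, 0.11 and 0.11), which the labels do not explain. BL LRC 1 and BL non-LRC 1 share low BioB signal and Y-linked transcripts under the floor, and the part of this was not tested. Between other groups r was -0.095 to 0.042. Each such pair includes a group of 2 samples, whose deviations mirror each other, so these values say little. Tables and figures were made in Python 3.11.15 (pandas 2.3.3, matplotlib 3.10.9).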

Additional observations from a re-analysis of the deposited data

How the results depend on the processing

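No member reversed a call under any alternative run. Without a mean-variance trend 3 members passed in BL, 3 in SL with the label, 1 from BL to SL in LRCs, 0 in non-LRCs, 2 for GL against SL LRC and 0 against SL non-LRC. Raising low values to 32 units left 4 in BL, 3 in SL, 4 for GL against SL LRC, 1 from BL to SL in non-LRCs and 0 for GL against SL non-LRC, averaging all probe sets of a gene left 5 in BL and 1 in non-LRCs, fitting the compared groups alone left 2 there, and centring on medians gave 2 for GL against SL non-LRC; the cause was not tested. Leaving out each replicate in turn gave 5 to 6 members in BL, 3 to 5 in SL, 3 in LRCs, 1 to 4 in non-LRCs, 3 to 5 for GL against SL LRC and 0 to 2 against SL non-LRC. The replicate block changed no call of a member in these comparisons (6 called in BL, as without it), but Krt79 in SL LRC against BL non-LRC passed with it (0.71, adjusted p = 0.0179, against 0.235 without). The interaction had 0 members under every alternative. Counts over all genes ranged from 72 to 362 in BL (main 279), 150 to 906 in SL (763), 65 to 602 in LRCs (512), 44 to 387 in non-LRCs (283), 905 to 2078 for GL against SL LRC (1705) and 294 to 1025 against SL non-LRC (875), lowest without the trend, and fell to 131, 209, 182, 78, 858 and 302 without 1 array. The number of arrays limits the precision of all values.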
